A study of Mus musculus with 64 samples.

Results

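The genes described here encode the enzymes of cholesterol and fatty acid synthesis and the proteins that control them. The set was given as 35 gene symbols, and all 35 were found among the 24421 symbols of the count table and among the 15634 genes with enough counts to be tested. They fall into 4 lists by role. The mevalonate arm and prenyl diphosphates list holds 9 genes, squalene and sterol enzymes 11, SREBP regulators and sterol transfer 6, and fatty acid enzymes 9. RNA was sequenced from the ventral tegmental area, the midbrain region of the mesolimbic dopamine neurons, in 64 adult male mice of strain 129S1/Svlm, with 1 poly(A)-selected, stranded library per mouse. The genotype labels read Wildtype (24 libraries) or Clock delta 19 mutant (40 libraries), the latter a dominant-negative allele of the circadian transcription factor Clock. For 14 days mice received VPA (valproate, a mood stabiliser that also inhibits histone deacetylases), ACY957 (a selective histone deacetylase inhibitor) or 1 of their 2 vehicles. Tissue was taken 24 h after dosing ended, at zeitgeber time 6, as bilateral punches of 1 mm. Each drug group held 8 libraries per genotype label. The VPA vehicle groups held 3 wildtype-labelled and 13 mutant-labelled libraries and the ACY957 vehicle groups 5 and 11, whereas the design text plans 8 in every group.

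Cholesterol is built from acetyl-CoA through mevalonate, isoprenoid diphosphates, squalene and lanosterol. Fatty acids are built from the same acetyl-CoA, then lengthened and desaturated. The SREBP transcription factors, encoded by Srebf1 and Srebf2, are carried by Scap out of the endoplasmic reticulum when sterols are low and held back by the Insig proteins when sterols are plentiful, and most genes described here are known SREBP targets. In the adult brain nearly all cholesterol is made locally, by astrocytes and neurons and by oligodendrocytes, which place most of it in myelin.

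Total counts per library ran from 20.1 to 37.5 M with a median of 25.8 M. Several libraries stood apart. In 13 of 64 the summed level of clock output genes went against the genotype label (12 labelled mutant, 1 labelled wildtype), so genotype results below are by label. Of these 13, 8 are mutant-labelled vehicle libraries of mouse 48 or later, 5 of the 9 such VPA vehicle libraries and 3 of the 7 such ACY957 vehicle libraries. Whether any label is wrong was not tested, and every library was kept under its label. In 4 libraries Th, the defining enzyme of dopamine neurons, was under 8 log2 CPM (TMM-scaled CPM, the reads of a gene relative to its library's total), and 2 of these were mutant-labelled VPA libraries. The summed CPM of 10 dopamine neuron markers spanned 377 to 13401, and that of 13 mature oligodendrocyte markers 10167 to 22010. None of the markers was at 0 in every library. The summed hypothalamic neuron markers ran from 7.34 to 597 CPM and were highest in the mutant-labelled VPA group (median 30.9). Within that group the highest were replicates 8, 2 and 7, at 597, 387 and 141 CPM. Replicates 8 and 2 also had the lowest Th of all libraries, at 4.72 and 5.47 log2 CPM. Against vehicle, that group's log2 fold changes were 4.22 for Pmch and 4.36 for Hcrt, hypothalamic neuropeptide genes (edgeR adjusted p = 7.77e-08 and 1.16e-07). The part of these replicates in the Pmch and Hcrt values was not tested. Finally, 16 of the 24 mutant-labelled vehicle libraries carry mouse numbers of 48 or later, where the only other library is 1 mutant-labelled VPA mouse, and the drug and genotype tests and the co-variation were recomputed without them.

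The promoters of the sterol genes are shown first because these genes varied together across libraries. RefSeq windows from 250 bases before to 50 bases after the start were found for 27 of the 35 members (35 windows, build GRCm38.p6). The table held none for Acat3, Fdps, Fdft1, Sqle, Stard4, Scd1, Scd2 and Fads1. Below are the 150 bases before the start of 5 genes of the mevalonate and sterol arms, read 5′ to 3′ on the gene's strand. Capitals mark any match on either strand to the classical sterol regulatory element (TCACNCCAC), its E-box-like form (TCACNTGA), the CCAAT box that binds NF-Y, or the GC box that binds Sp1 (GGGCGG). These 5 genes were picked for display, and each stretch holds both a CCAAT and a GC box. Not every stretch of these arms does, some of them starting further upstream. Those of Cyp51, Dhcr7 and Acat2 held no CCAAT box, those of Pmvk, Ggps1 and Sc5d no GC box, and that of Idi1 neither. Hmgcs1 makes HMG-CoA, Mvk phosphorylates mevalonate, Mvd makes isopentenyl diphosphate, Nsdhl takes part in C-4 demethylation of sterols, and Ebp shifts the sterol double bond.
Hmgcs1, chr13:119690201-119690350, plus strand: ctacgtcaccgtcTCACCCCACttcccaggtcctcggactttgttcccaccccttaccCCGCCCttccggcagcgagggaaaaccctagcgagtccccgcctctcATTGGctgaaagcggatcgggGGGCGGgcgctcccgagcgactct
Mvk, chr5:114444119-114444268, plus strand: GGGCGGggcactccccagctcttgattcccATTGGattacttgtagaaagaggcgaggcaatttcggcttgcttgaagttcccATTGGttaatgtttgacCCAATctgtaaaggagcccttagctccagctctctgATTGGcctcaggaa
Mvd, chr8:122443423-122443572, minus strand: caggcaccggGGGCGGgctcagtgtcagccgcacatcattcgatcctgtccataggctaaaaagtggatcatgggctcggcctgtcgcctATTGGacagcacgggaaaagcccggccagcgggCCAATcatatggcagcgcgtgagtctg
Nsdhl, chrX:72918371-72918520, plus strand: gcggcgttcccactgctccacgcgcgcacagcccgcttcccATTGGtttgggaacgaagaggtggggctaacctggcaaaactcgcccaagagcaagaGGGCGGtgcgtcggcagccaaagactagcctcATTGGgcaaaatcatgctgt
Ebp, chrX:8193513-8193662, minus strand: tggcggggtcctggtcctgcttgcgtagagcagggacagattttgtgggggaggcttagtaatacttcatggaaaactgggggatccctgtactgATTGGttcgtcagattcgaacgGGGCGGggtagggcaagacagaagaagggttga

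The exact sterol regulatory element was found in 1 of the 27 members matched, Hmgcs1, 137 bases before its start. That is 2.86% of the members' windows, beside 1.24% of all 32851 windows. The E-box-like form was found in Insig2 alone among the members, and in 4.18% of all windows. The CCAAT box was present in 22 of 27 members, in 65.7% of their windows against 37.4% of all windows. The GC box was also present in 22 of 27 members, in 74.3% of their windows against 35.7% of all. Each of the 9 sterol enzymes matched held both of these boxes (Lss, Cyp51, Tm7sf2, Msmo1, Nsdhl, Hsd17b7, Ebp, Sc5d and Dhcr7). Of the 6 fatty acid enzymes matched, 3 held a CCAAT box (Acly, Acss2 and Fasn). These are matches of letters in a short window, and binding was not measured.

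Levels were compared between genes per kb of exon, with exon lengths from GENCODE M21 on the same build. Scd2, the main neural stearoyl-CoA desaturase, stood highest with a median of 748 CPM per kb over 64 libraries (range 561 to 818). Its neighbour Scd1 came next at 154, and Hmgcs1, the highest of the sterol genes, at 110. Insig1 (75.6), Fads1 (67.3) and Acly (59.2), the enzyme that makes cytosolic acetyl-CoA from citrate, followed. The lowest were Acaca (3.29), which makes malonyl-CoA, Acat3 (3.35), and Lss (4.29), which closes squalene epoxide into lanosterol. Scap varied least, with a ratio of 1.33 between its highest and lowest library, and Acat3 most, at 2.78. Acat2 and Acat3 are neighbouring genes on chromosome 17, and 37.7% of the 75-base windows of Acat3 are also present in Acat2, so how reads were split between them is uncertain. In addition, 23.5% of the Acat3 exon bases overlap Tcp1 on the other strand and 18.3% of the Fdft1 exon bases overlap Ctsb there. The shares for Scap (with 5830462I19Rik) and Hmgcs1 (with Gm48342) on the other strand are 13.2% and 12.1%. On the same strand, 26.7% of the Fdps exon bases overlap Gm43738 and 12.1% of the Tm7sf2 exon bases overlap Vps51. The sources used here do not give the strand setting of the counting.

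**Figure D1:**
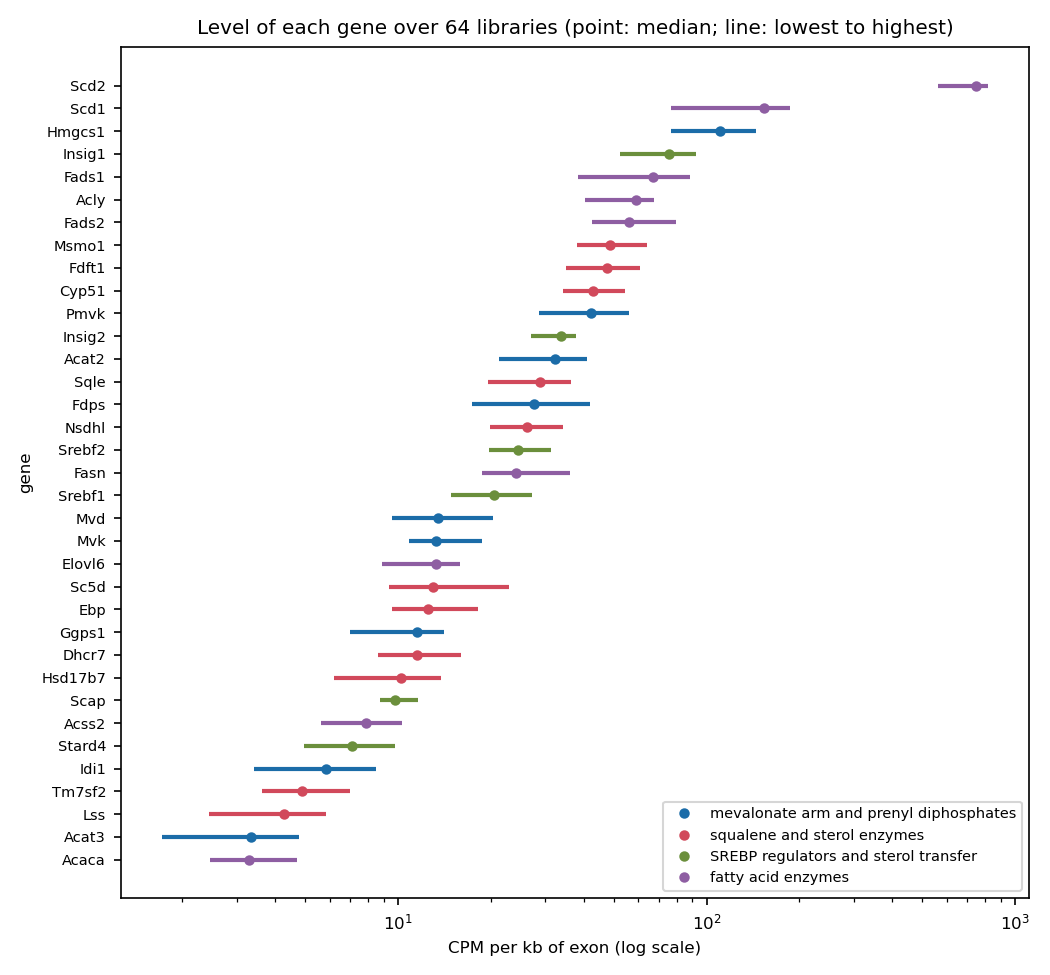
Level of each of the 35 genes in CPM per kb of exon on a log scale, with the median (point) and the lowest to highest of 64 libraries (line), coloured by list. Scd2 lies far above the rest at a median of 748, and the 11 sterol enzymes lie between Lss at 4.29 and Msmo1 at 48.6.

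The first question was whether either drug moved these genes against its own vehicle. Most of them were lower with both drugs by small amounts, and few single genes passed the test. In wildtype-labelled mice, VPA lay below vehicle for 31 of 35 members, with a median log2 fold change of -0.16 where all genes tested had a median of -0.0015. That group has 3 vehicle libraries, and the median was -0.09 without VPA vehicle replicate 3 and -0.21 without replicate 1. In mutant-labelled mice it lay below for 28 of 35, with a median of -0.12. ACY957 lay below its vehicle for 25 of 35 members in the wildtype label, with a median of -0.10, and for 29 of 35 in the mutant label, with a median of -0.09. These medians are close to the spread between libraries of 1 group, since the median deviation of the 35 genes had an SD of 0.108 on the log2 scale. In tissue punches, fewer cells of a type and less RNA per cell cannot be told apart.

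No member passed an adjusted p of 0.05 in any of the 4 drug comparisons with edgeR's quasi-likelihood test, and none did with DESeq2 or limma voom. Few genes of any kind passed. Calls made up 0.0256% of all genes for VPA in the wildtype label, 0.0576% in the mutant label, and 0.00640% for ACY957 in each label. At an unadjusted p under 0.05, 12 members were lower and 1 was higher with VPA in the wildtype label, where 2.23% of all genes were lower at that level. For VPA in the mutant label 10 were lower and 1 was higher, against 5.54% of all genes lower. With ACY957, 6 were lower and 1 higher in the wildtype label (1.68% of all genes lower), and 5 were lower and 1 higher in the mutant label (3.34% of all genes lower). Members varied together, as shown further on, so these counts are not counts of independent genes.

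The 4 drug comparisons share no library. In all 4, 22 of 35 members (62.9%) lay below vehicle, whereas 11.3% of all genes tested did so, and 12.7% of the 10300 genes in the members' range of expression. Here too members varied together, so this is not a count of independent genes. The members were also chosen with earlier results of these data known. The 22 were Acat2, Hmgcs1, Mvk, Mvd, Idi1 and Fdps of the mevalonate arm, every sterol enzyme except Sc5d, the regulators Srebf2 and Insig1 with the sterol carrier Stard4, and the fatty acid genes Acly, Acss2 and Elovl6. By list this is 6 of 9, 10 of 11, 3 of 6 and 3 of 9. Srebf1, Ggps1 (geranylgeranyl diphosphate synthase) and Insig2 were higher in all 4. Marker lists of 2 cell types had like shares below vehicle in all 4, namely 9 of 13 mature oligodendrocyte genes (69.2%) and 5 of 8 microglia genes (62.5%), while 3 of 10 dopamine neuron genes, 1 of 7 general neuron genes and 1 of 10 astrocyte genes did so. With the mature oligodendrocyte score as a covariate, 21 of 35 members stayed below vehicle in all 4. No other marker list was used as a covariate, so the part of the other cell types was not tested.

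The mutant-labelled VPA result depends on which vehicle libraries are used. Without the 16 vehicle libraries of mouse 48 and later, the median log2 fold change of VPA in that label was 0.02 instead of -0.12, and the count of members below vehicle in all 4 comparisons was 7 of 35 instead of 22. Of the 11 sterol enzymes, 5 lay below vehicle there instead of 10, as did 3 of the 9 mevalonate genes and 4 of the 9 fatty acid enzymes. Without the 13 libraries whose clock output went against the label, that median was -0.08 and the count below vehicle in all 4 was 22. The wildtype-labelled groups hold none of the 16 later vehicle libraries. The ACY957 medians of the sterol enzymes in the mutant label were -0.13 with those 16 libraries and -0.07 without them. Among the mutant-labelled VPA vehicle libraries, the median deviation of the 35 genes from their overall means ran from -0.29 to 0.02 (median -0.09) in the 4 earlier libraries and from -0.13 to 0.23 (median 0.10) in the 9 later ones. The summed dopamine neuron markers in those earlier libraries ran from 1770 to 3976 CPM, below every one of the later libraries (4670 to 9499 CPM). The part of these markers in the result was not tested.

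**Figure D2:**
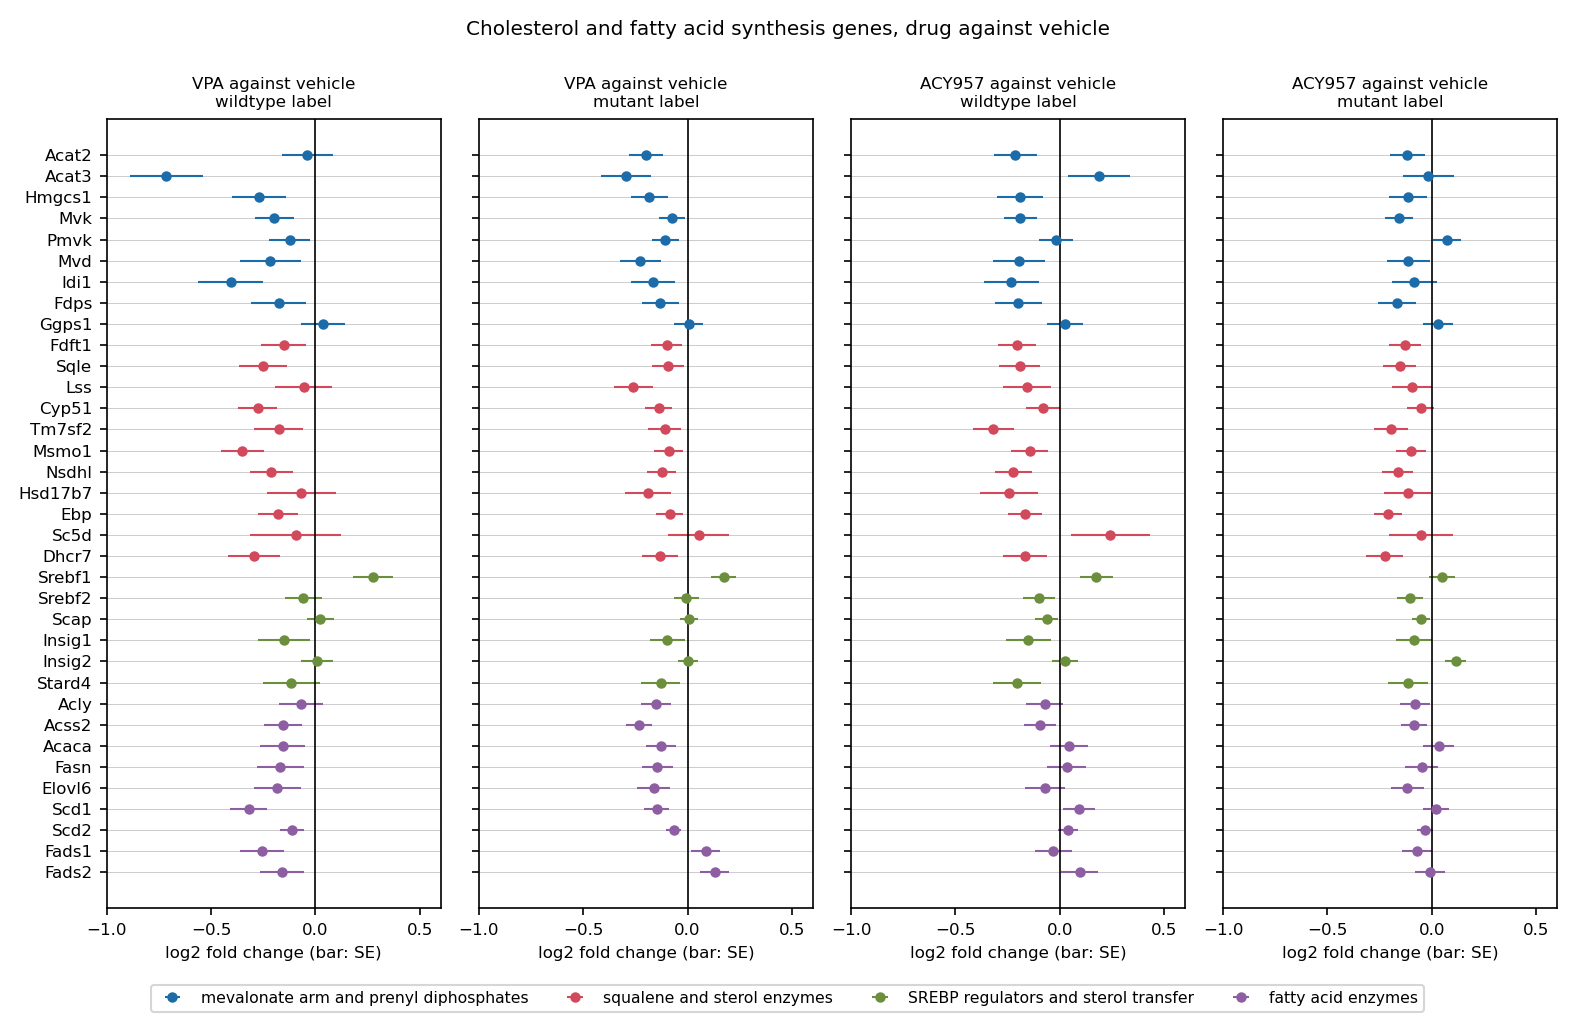
Log2 fold change of each of the 35 genes in the 4 drug comparisons (points, with bars of 1 SE from the edgeR fit), coloured by list. Most points of the mevalonate and sterol lists lie left of 0 in all 4 panels, Srebf1 lies right of 0 in all 4, and no gene passed an adjusted p of 0.05 in any panel.

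**Figure D3:**
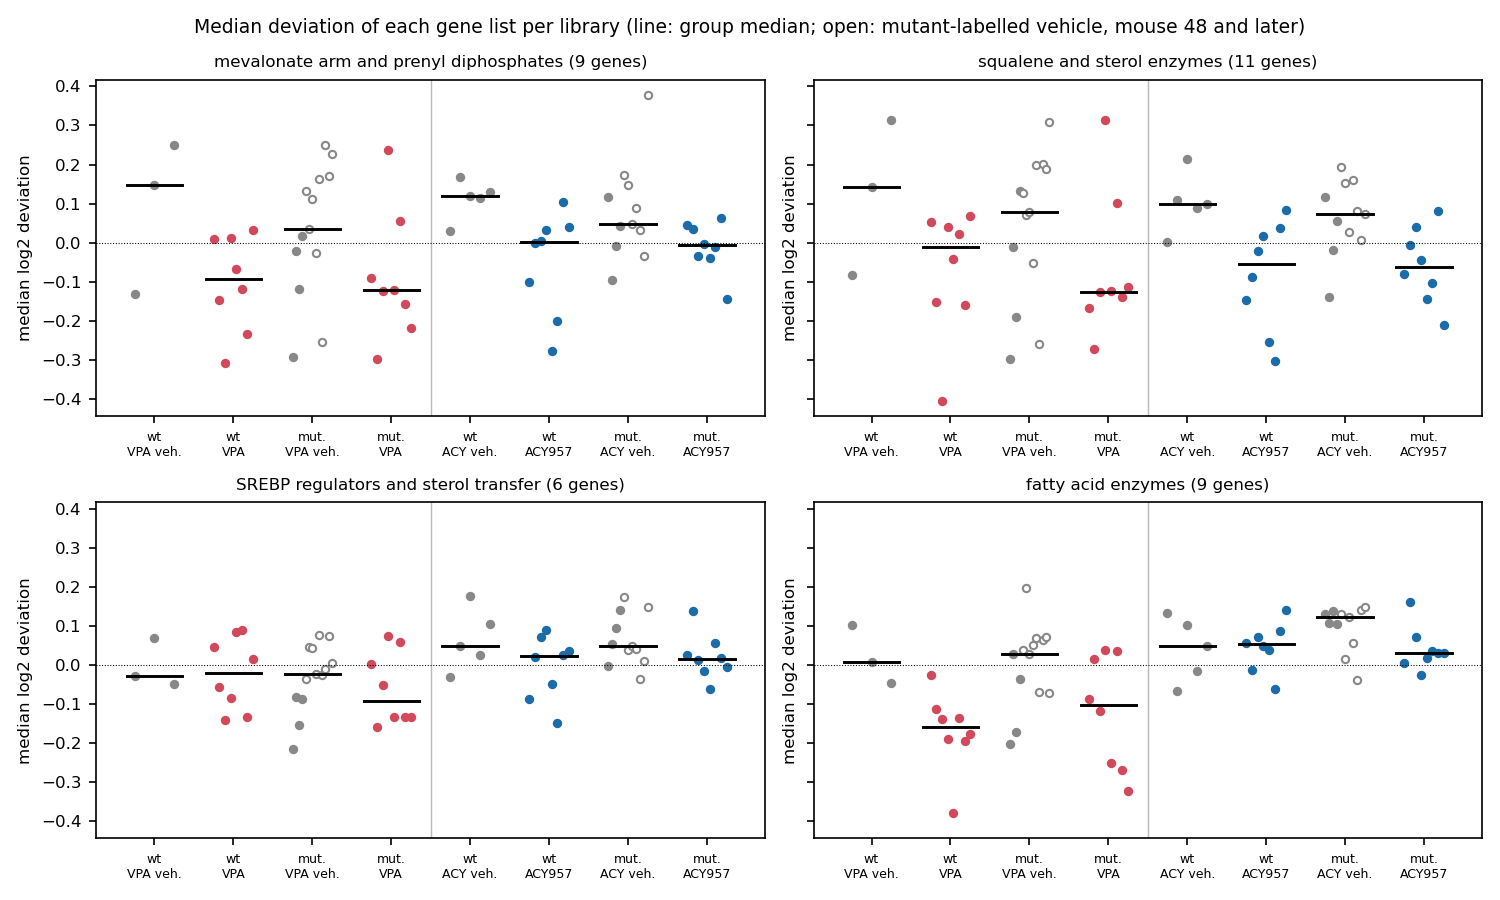
Median log2 deviation of each gene list from the gene means over 64 libraries, 1 point per library by group, with a line at each group's median. Open points are the 16 vehicle libraries of mouse 48 and later. The fatty acid list has group medians of -0.16 and -0.10 with VPA and 0.05 and 0.03 with ACY957 in the wildtype and mutant labels. Those of the vehicles are 0.01 and 0.03 for VPA and 0.05 and 0.12 for ACY957.

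In the mevalonate arm, VPA gave a median log2 fold change of -0.20 in the wildtype label and -0.17 in the mutant label, and ACY957 gave -0.19 and -0.11. Acat3, a cytosolic acetoacetyl-CoA thiolase, fell with VPA over both labels by 0.50 on the log2 scale (SE 0.106, edgeR adjusted p = 0.0368), the only member called there, where 0.0704% of all genes were called. In the wildtype label its 3 vehicle libraries held 7.20, 9.82 and 10.8 CPM, and its 8 VPA libraries ran from 4.17 to 8.03 with a median of 5.36. All VPA libraries but 1 lay below every vehicle library. The 13 mutant-labelled vehicle libraries ran from 5.67 to 11.6 CPM (median 8.54) and the VPA libraries from 5.93 to 7.69 (median 6.97), inside the vehicle range. Its change with ACY957 was 0.09 (SE 0.0968), and the difference between the drugs was -0.59 (SE 0.144, edgeR adjusted p = 0.208), which did not pass.

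The Acat3 call rested on single libraries. It was lost on leaving out any of wildtype-labelled VPA replicate 6 (adjusted p = 0.0568), wildtype-labelled VPA vehicle replicate 2 (0.112) or 3 (0.201), mutant-labelled VPA replicate 5 (0.0510) or 7 (0.0557), or mutant-labelled VPA vehicle replicate 9 (0.0504). It was also lost without the 16 later vehicle libraries (adjusted p = 0.211), with limma voom (0.0533), with only the groups compared (0.102), without the 13 libraries whose clock output went against the label (0.0929) and with the oligodendrocyte score as a covariate (0.204). Its log2 fold change lay between -0.42 and -0.54 in these 5 settings. At an unadjusted p under 0.05, 18 members were lower and 1 was higher with VPA over both labels, beside 4.97% of all genes lower. Leaving out mutant-labelled VPA replicate 4 raised the count of called members from 1 to 6 (Acat3, Acss2, Cyp51, Msmo1, Scd1 and Srebf1).

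Idi1, which interconverts the isopentenyl diphosphates, held 21.8, 24.3 and 29.7 CPM in the wildtype-labelled VPA vehicle libraries and 15.9 to 23.9 CPM (median 18.8) with VPA. Its log2 fold change was -0.41 (SE 0.156, edgeR adjusted p = 1.00), and all VPA libraries but 1 lay below all 3 vehicle libraries. Hmgcs1 showed -0.27 and -0.18 with VPA and -0.19 and -0.12 with ACY957 in the wildtype and mutant labels. Mvk, Mvd and Fdps (farnesyl diphosphate synthase) lay between -0.07 and -0.23 in all 4 comparisons. Pmvk, the phosphomevalonate kinase, lay below vehicle in 3 of 4. Ggps1 stayed between 0.00 and 0.04.

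The squalene and sterol enzymes showed the most even pattern. Their median log2 fold change was -0.18 and -0.11 with VPA and -0.17 and -0.13 with ACY957, and 11, 10, 10 and 11 of the 11 lay below vehicle in these comparisons. Msmo1, the sterol C-4 methyl oxidase, had 277, 358 and 393 CPM in wildtype-labelled VPA vehicle and 246 to 302 CPM (median 262) with VPA. All 8 VPA libraries lay below the vehicle median and 5 below every vehicle library (log2 fold change -0.35, SE 0.102, edgeR adjusted p = 0.682). Its change in the mutant label was -0.09 (SE 0.0694).

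Cyp51, the lanosterol demethylase, had 193, 210 and 230 CPM in the same vehicle group and 160 to 197 CPM (median 170) with VPA. All but 1 of these VPA libraries lay below the vehicle range (log2 fold change -0.28, SE 0.0933, edgeR adjusted p = 0.924). Its changes in the mutant label and with ACY957 were -0.14, -0.08 and -0.05.

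Tm7sf2, a sterol C-14 reductase, had 21.8, 22.3, 23.1, 27.4 and 27.5 CPM in wildtype-labelled ACY957 vehicle and 15.99 to 21.6 CPM (median 19.9) with ACY957. The 2 groups did not overlap, which held for 1 member in this comparison and for 0.154% of all genes. The log2 fold change was -0.32 (SE 0.0975, edgeR adjusted p = 0.999). In the mutant label it was -0.20 (SE 0.0804), with vehicle at 18.4 to 30.8 CPM (median 22.2) and ACY957 at 17.6 to 22.6 (median 20.1). Averaged over both labels it was -0.26 (SE 0.0632, edgeR adjusted p = 0.104), and it passed there with DESeq2.

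Ebp had 25.3, 26.8, 30.3, 30.7 and 31.1 CPM in wildtype-labelled ACY957 vehicle and 22.2 to 28.9 CPM (median 26.1) with ACY957. In the mutant label vehicle ran from 23.7 to 41.9 CPM (median 28.4) and ACY957 from 22.8 to 29.9 (median 25.4). The groups overlapped in both labels, and the log2 fold changes were -0.17 (SE 0.0818) and -0.21 (SE 0.0672, edgeR adjusted p = 0.460). Over both labels no member passed for ACY957 (edgeR, 0.0256% of all genes called), 14 members were lower and 1 higher at an unadjusted p under 0.05 (4.32% of all genes lower), and DESeq2 called 1 and limma voom 0.

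Of the other sterol enzymes, Fdft1 (squalene synthase), Sqle (squalene epoxidase), Nsdhl and Dhcr7 (which makes cholesterol from its immediate precursor) lay between -0.09 and -0.29 in every drug comparison. Lss and Hsd17b7, a C-4 ketoreductase, lay between -0.06 and -0.26. Sc5d, the sterol C-5 desaturase, was the exception, with -0.10, 0.05, 0.24 and -0.05 and SEs of 0.146 to 0.220.

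**Figure D4:**
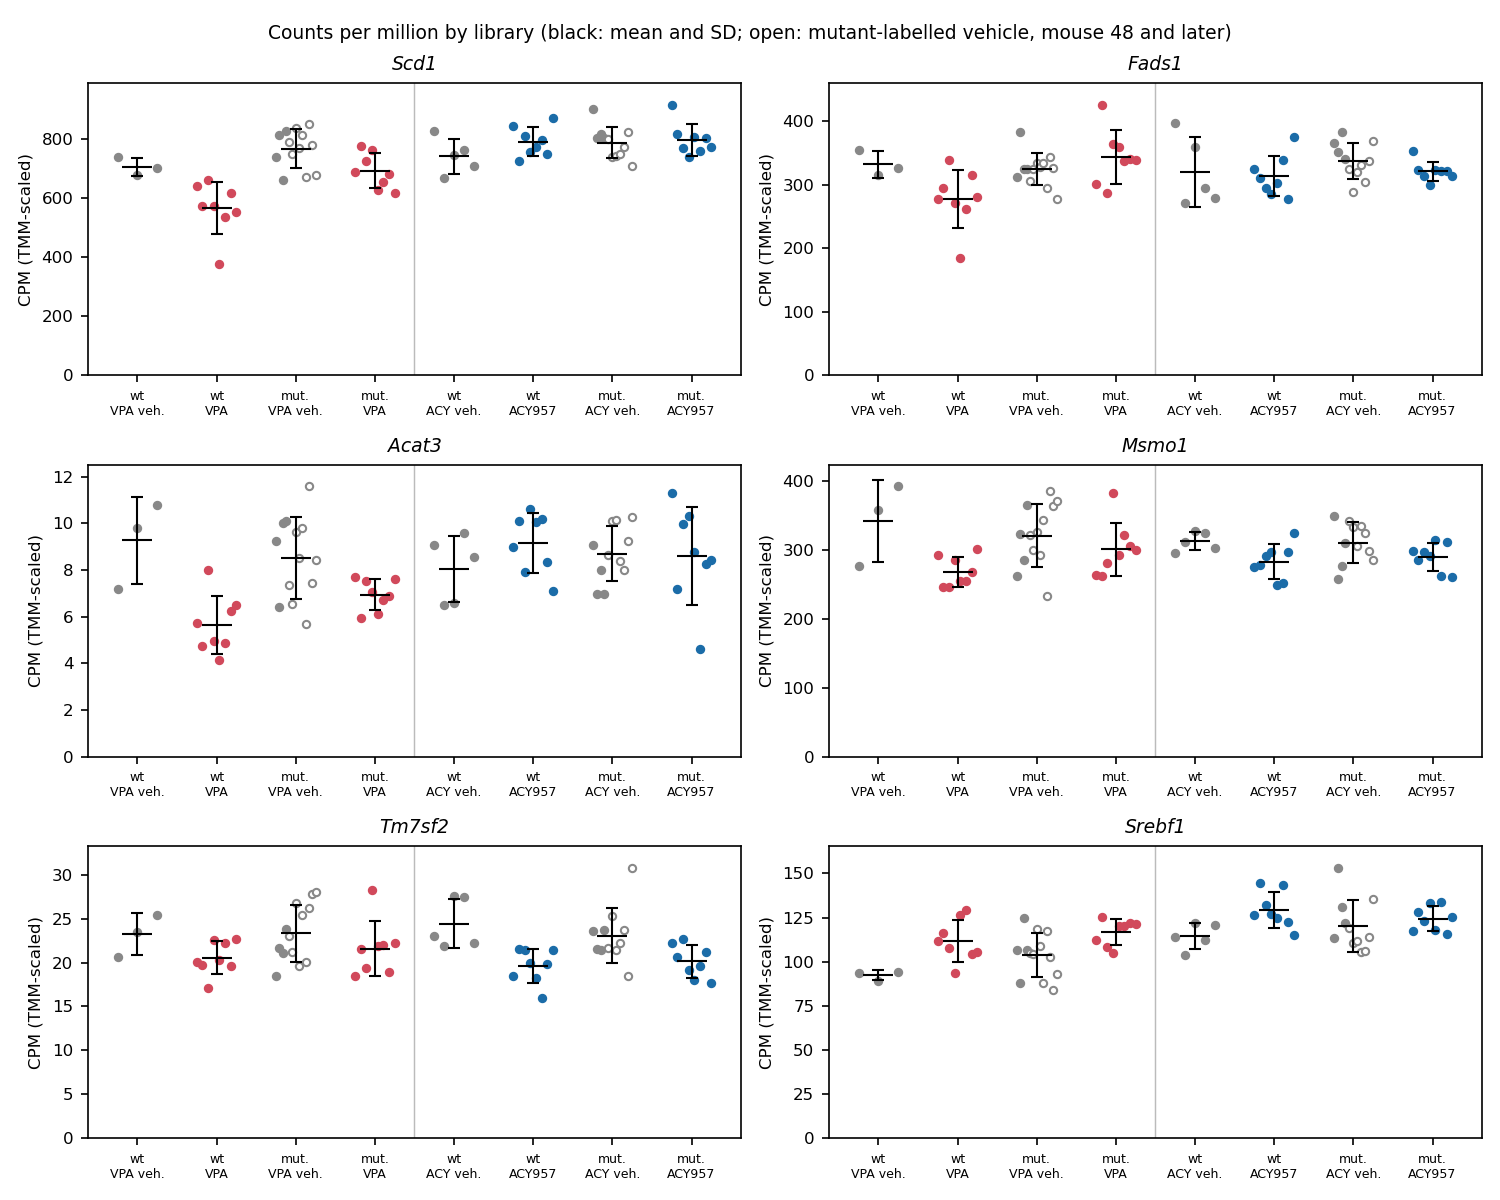
TMM-scaled CPM of Scd1, Fads1, Acat3, Msmo1, Tm7sf2 and Srebf1 in every library by group, with the mean and SD in black; open points are the vehicle libraries of mouse 48 and later. Scd1 in wildtype-labelled mice lies lower with VPA (376 to 659) than with vehicle (676 to 738), without overlap.

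Among the regulators, Srebf1 and Insig2 lay above vehicle in all 4 drug comparisons, and neither passed. For Srebf1 in the wildtype label, the VPA vehicle libraries held 89.0, 93.7 and 94.3 CPM and the VPA libraries 93.8 to 129 CPM (median 110). All VPA libraries but 1 lay above the vehicle range. In the mutant label vehicle ran from 83.7 to 125 CPM (median 105) and VPA from 105 to 125 (median 120). The log2 fold changes of Srebf1 were 0.28 (SE 0.0938) and 0.17 (SE 0.0610). Over both labels it was 0.22 (SE 0.0561, edgeR adjusted p = 0.0854), which did not pass, though DESeq2 called it. With ACY957 they were 0.18 and 0.05. The table counts the whole gene, so the 2 SREBP-1 isoforms of Srebf1 were not separated.

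Srebf2, which encodes the main activator of sterol synthesis, lay between -0.01 and -0.10 in the 4 comparisons. Insig1, itself an SREBP target, lay between -0.08 and -0.15, and Stard4, a cholesterol carrier, between -0.11 and -0.21. Scap and Insig2 stayed between -0.06 and 0.11.

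The fatty acid enzymes lay below vehicle with VPA in the wildtype label and near vehicle with ACY957 averaged over both labels. With VPA over both labels all 9 lay below vehicle with a median log2 fold change of -0.14, and with ACY957 5 of 9 did with a median of -0.008. Without the 16 later vehicle libraries the VPA medians were -0.16 in the wildtype label, where all 9 lay below vehicle, 0.01 in the mutant label, where 4 of 9 did, and -0.08 over both labels. For ACY957 in the mutant label, the 9 log2 fold changes ran from -0.12 (Elovl6) to 0.03 (Acaca), with only Acaca and Scd1 above vehicle. Without the 16 libraries these ACY957 values ran from -0.16 (Fads1) to 0.13 (Acaca), with only Acaca above vehicle. The difference between the drugs passed for none of the 35 members (edgeR, 0.0128% of all genes called); 4 were lower at an unadjusted p under 0.05, and neither DESeq2 nor limma voom called any. For Scd1 this difference was -0.29 (SE 0.0718, edgeR adjusted p = 0.208).

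Scd1, a desaturase that makes monounsaturated fatty acids, had 676, 701 and 738 CPM in wildtype-labelled VPA vehicle and 376 to 659 CPM (median 572) with VPA. The groups did not overlap, as for 1.21% of all genes in that comparison, and no other member shared this. The log2 fold change was -0.32 (SE 0.0875, edgeR adjusted p = 0.506). In the mutant label vehicle ran from 659 to 848 CPM (median 780) and VPA from 618 to 777 (median 683), with a log2 fold change of -0.15 (SE 0.0593). Over both labels it was -0.23 (SE 0.0528), just outside the threshold with edgeR and called by DESeq2. With ACY957 its changes were 0.09 and 0.02.

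Acss2, which activates acetate to acetyl-CoA in the cytosol and nucleus, had 64.0 to 104 CPM (median 86.9) in mutant-labelled VPA vehicle and 57.4 to 87.6 CPM (median 71.5) with VPA. The groups overlapped, with 7 of 8 VPA libraries below the vehicle median (log2 fold change -0.23, SE 0.0614, edgeR adjusted p = 0.0862). It passed when any of mutant-labelled VPA replicates 1 (adjusted p = 0.0470), 4 (0.0204) or 6 (0.0386), or mutant-labelled VPA vehicle replicates 1 (0.0372) or 3 (0.0141), was left out. Over all 21 libraries left out in turn, the adjusted p ran from 0.0141 to 0.573 and the log2 fold change from -0.28 to -0.19. Without the 16 later vehicle libraries the log2 fold change was -0.06 (edgeR adjusted p = 1.00), the vehicle median being 75.1 CPM in the 4 earlier libraries and 87.6 CPM in the 9 later ones. In the wildtype label its libraries held 78.7, 79.1 and 91.2 CPM with vehicle and 66.5 to 81.6 (median 73.7) with VPA, a log2 fold change of -0.16.

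Acly, Acaca, Fasn (fatty acid synthase), Elovl6 (which lengthens C16 fatty acids) and Scd2 lay between -0.07 and -0.18 with VPA in both labels. With ACY957 they lay between -0.12 and 0.04. Fads1 and Fads2, the delta-5 and delta-6 desaturases of polyunsaturated fatty acids, showed -0.26 and -0.16 with VPA in the wildtype label but 0.09 and 0.13 in the mutant label. The difference between the labels was 0.34 for Fads1 (SE 0.125) and 0.29 for Fads2 (SE 0.125), and neither passed (edgeR adjusted p = 1.00 for both). No member passed for a difference in drug effect between labels. For VPA 0.00640% of all genes did so and 3 members were higher at an unadjusted p under 0.05, and for ACY957 the shares were 0% of all genes and 0 members. DESeq2 and limma voom called no member in either.

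The design next compares the genotype labels within each treatment. With VPA, 2 fatty acid genes were higher in the mutant label, where 1.00% of all genes were called. Scd1 was higher by a log2 fold change of 0.29 (SE 0.0657, edgeR adjusted p = 0.0138). The 8 mutant-labelled VPA libraries ran from 618 to 777 CPM, all above the wildtype-labelled median of 572, and 5 lay above every wildtype-labelled library. Fads1 was higher by 0.31 (SE 0.0778, edgeR adjusted p = 0.0332), at 286 to 426 CPM (median 339) against 184 to 339 CPM (median 279).

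Both calls were made with 8 libraries against 8 and were lost when only these 2 groups were fitted (adjusted p = 0.184 for Scd1 and 0.211 for Fads1), with log2 fold changes of 0.29 and 0.31 as before. Scd1 was also lost without wildtype-labelled VPA replicate 5, its lowest library at 376 CPM (adjusted p = 0.0627). Fads1 was lost without wildtype-labelled VPA replicate 1 (0.0672), 4 (0.0756), 5 (0.129) or 6 (0.0716), or mutant-labelled VPA replicate 2 (0.1099), 7 (0.0511) or 8 (0.0646), without the 4 Th-low libraries (0.0715) and without the 13 libraries whose clock output went against the label (0.119). Marker lists also differed between these 2 groups. The summed astrocyte markers were 4949 to 5449 CPM (median 5273) in the mutant label and 4332 to 5172 CPM (median 4693) in the wildtype label. The medians in the mutant and wildtype labels were 4659 and 7718 CPM for dopamine neuron, 536 and 600 CPM for microglia, 505 and 440 CPM for precursor and newly formed oligodendrocyte and 30.9 and 12.8 CPM for hypothalamic neuron markers. The groups overlapped for each list, and the part of these markers in the calls was not tested.

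Lss and Fads2 came next in the VPA groups. Lss had 26.3 to 48.5 CPM (median 34.5) in the mutant label and 29.7 to 51.3 CPM (median 47.7) in the wildtype label, with a log2 fold change of -0.34 (SE 0.103, edgeR adjusted p = 0.0738). It passed without wildtype-labelled VPA replicate 3 (adjusted p = 0.0124), mutant-labelled VPA replicate 4 (0.0405) or 6 (0.0216), or the 16 later vehicle libraries (0.0460), while over all single libraries left out its adjusted p ran up to 0.229, with log2 fold changes of -0.42 to -0.29. Fads2 had 168 to 263 CPM (median 187) against 140 to 208 CPM (median 170), a log2 fold change of 0.20 that did not pass.

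In the other 3 treatments no member differed between the labels with edgeR, DESeq2 or limma voom, and none had an unadjusted p under 0.05. The shares of all genes called were 0% with ACY957, 0.00640% with VPA vehicle and 0.0128% with ACY957 vehicle. Averaged over the 4 treatments, Scd1 was higher in the mutant label by 0.13 (SE 0.0362, edgeR adjusted p = 0.0492), the only member called beside 1.61% of all genes, and this call was lost on leaving out any of 43 of the 64 libraries. Leaving out a single library gave it an adjusted p between 0.0253 and 0.150. Of the 8 microglia markers, 5 were lower in the mutant label in the same average. Other lists differed as well. The summed astrocyte markers had means of 5258, 4967, 4758 and 5007 CPM in the mutant label with VPA, VPA vehicle, ACY957 vehicle and ACY957. Those of the wildtype label were 4718, 4883, 4614 and 4759 CPM. The part of the marker lists in the result was not tested.

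The vehicles were also compared with each other. In the mutant label the VPA vehicle libraries lay below the ACY957 vehicle libraries for both SREBP genes, in a comparison where 3.66% of all genes were called. Srebf1 was lower by a log2 fold change of -0.21 (edgeR adjusted p = 0.0228), with 83.7 to 125 CPM (median 105) against 105 to 153 CPM (median 114). Srebf2 was lower by -0.20 (edgeR adjusted p = 0.0279), with 142 to 207 CPM (median 170) against 162 to 226 CPM (median 197). The groups overlapped for both genes.

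These calls were lost without the 16 later vehicle libraries (adjusted p = 0.118 for Srebf1 and 0.0976 for Srebf2), although the log2 fold changes were then -0.27 and -0.31. They were also lost with the oligodendrocyte score as a covariate (0.135 and 0.186, with log2 fold changes of -0.18 and -0.16). The summed oligodendrocyte markers were 13905 to 22010 CPM (median 19025) in VPA vehicle and 12808 to 18377 CPM (median 15348) in ACY957 vehicle. The summed dopamine neuron markers differed too, at 1770 to 9499 CPM (median 6135) and 5023 to 9690 CPM (median 7889). In the libraries before mouse 48 they were 1770 to 3976 CPM and 6837 to 9690 CPM. No other marker list was used as a covariate, and the part of the dopamine neuron markers in these calls was not tested. Srebf1 was lost without mutant-labelled ACY957 vehicle replicate 2 (0.0669), and Srebf2 without mutant-labelled VPA vehicle replicate 1 (0.0567) or ACY957 vehicle replicate 3 (0.0564), 4 (0.0584) or 5 (0.0623). In the wildtype label 0 members were called, as were 0% of all genes, 1 member, Srebf1, was lower at an unadjusted p under 0.05 (log2 fold change -0.31), and DESeq2 and limma voom called none.

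Co-variation was described by correlating log2 CPM deviations from the group means over the 64 libraries, so that differences between group means do not enter. Differences within a group do enter, such as those between earlier and later vehicle libraries or between libraries unlike in clock output. It was not recomputed without the 13 libraries whose clock output went against the label. All 55 pairs of the 11 sterol enzymes correlated positively, with a median Pearson r of 0.61. Pairs of a mevalonate gene and a sterol enzyme had a median of 0.55, pairs of fatty acid enzymes 0.17, and all 595 pairs of members 0.27. Pairs of a member and any other gene tested had a median of -0.007. The closest pair was Fdft1 and Sqle at 0.93, the 2 consecutive enzymes that make and oxidise squalene. Insig1 and Hsd17b7 reached 0.90.

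Some members stood outside this common variation. Srebf1 had a median r of -0.27 with the sterol enzymes, Ggps1 -0.06 and Acat3 0.04. Srebf2 was closest to Fasn (0.84) and had a median r of 0.07 with the sterol enzymes. Scd1 and Scd2 varied with each other (0.75), and Fads1 with Scd1 (0.71), Fads2 (0.65) and Scd2 (0.62). The medians of these desaturases with the sterol enzymes lay between -0.28 and -0.02. These correlations share libraries and dissections. The mean deviation of the mevalonate and sterol genes had an r of 0.58 with that of the dopamine neuron markers, 0.56 with general neuron, 0.37 with mature oligodendrocyte and -0.53 with hypothalamic neuron markers. For the fatty acid enzymes, r was 0.50 with general neuron and 0.47 with precursor and newly formed oligodendrocyte markers. It was 0.28 with dopamine neuron and -0.26 with hypothalamic neuron markers, and between -0.21 and 0.11 with the other lists. After regression on the mature oligodendrocyte score the sterol enzymes' median was 0.58, and without the 4 Th-low libraries it was 0.59. Without the 16 later vehicle libraries, an alternative chosen after seeing the data, it was 0.65, and the r of the mevalonate and sterol genes was 0.61 with dopamine neuron, 0.62 with general neuron, 0.43 with mature oligodendrocyte and -0.62 with hypothalamic neuron markers over 48 libraries.

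**Figure D5:**
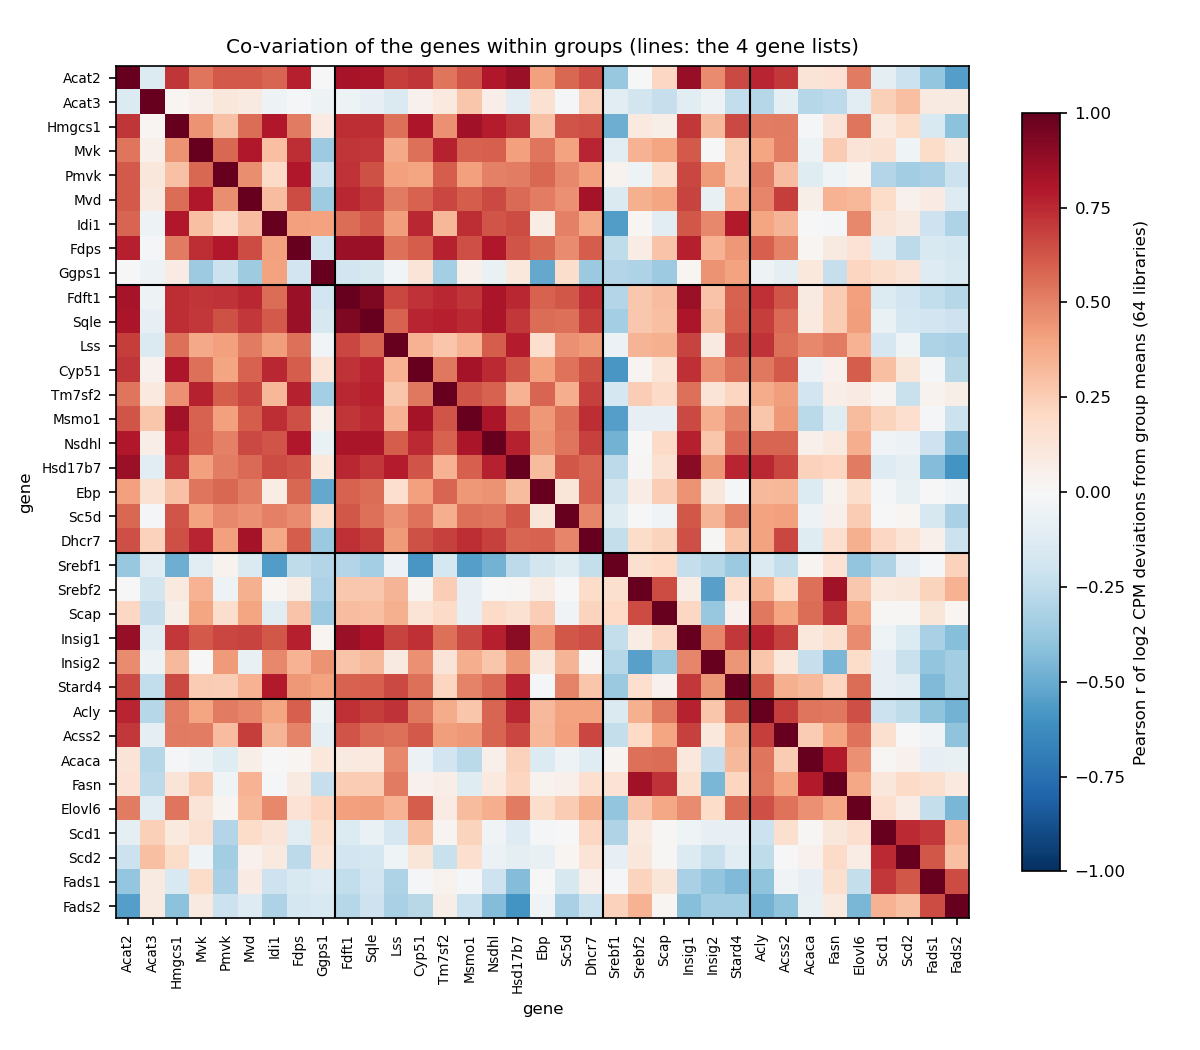
Pearson r of log2 CPM deviations from the group means between all pairs of the 35 genes over 64 libraries, with black lines between the 4 lists. The mevalonate and sterol blocks are mostly positive (medians 0.36 and 0.61), Acat3, Ggps1 and Srebf1 stand out as pale or negative bands, and the desaturases at the end form a block of their own.

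Outside the lists, the genes whose deviations followed the mean of the 35 members most closely over 64 libraries included Aacs, the acetoacetyl-CoA synthetase of the same pathway (r = 0.79), Rdh11 (0.75), Tagln3 (0.73), Klk6 (0.73), Fkbp1b (0.72), Clgn (0.72) and Npbwr1 (0.72). Among 15 further genes of sterol sensing, efflux and turnover, none passed in any drug or genotype comparison, and 3 lay below vehicle in all 4 drug comparisons. Of 16 further genes of fatty acid and lipid synthesis that could be tested, 3 lay below vehicle in all 4. Thrsp, a regulator of lipogenesis, was higher in the mutant label with VPA by 0.44 (SE 0.0857, edgeR adjusted p = 0.00311) and by 0.19 averaged over the 4 treatments (adjusted p = 0.0172). Scd3 was higher in that average by 0.34 (adjusted p = 0.00745). Between the mutant-labelled vehicles, Elovl2 and Elovl4 were both higher by 0.21 (adjusted p = 0.0323 and 0.0456) and Fads3 was lower with VPA vehicle, at -0.20 (0.0316). In that comparison 572 of all genes (3.66%) were called. The number called was 7 without the 16 later vehicle libraries and 18 with the oligodendrocyte score as a covariate.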

How the data were processed

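The authors deposited 1 table of raw read counts per gene for 64 libraries on mm10. Reads were aligned with TopHat2 2.0.9 and counted with HTSeq 0.6.1 according to the series' design text, but the submitters' processing notes give HISAT2 as the aligner, after trimming with Trimmomatic. The aligner is therefore uncertain, and the strand setting of the counting is not given in the sources used here. Groups follow the labels, and p-values measure the spread between mice, 1 library each.

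Genes were filtered with filterByExpr and tested with edgeR 4.0.16 (R 4.3.3) by its quasi-likelihood test, with TMM scaling, a mean for each of the 8 groups and Benjamini-Hochberg adjustment over 15634 genes at 0.05. Fold changes are log2 values from this fit (prior count 2 for log2 CPM). The same contrasts were recomputed with DESeq2 1.42.0, limma 3.58.1 voom, no filter, only the groups compared, 3 removals of libraries, an oligodendrocyte covariate, and leaving out each library. The fit was tested on simulated data. Median deviations are, per library, the median over genes of log2 CPM minus the gene's mean over 64 libraries.

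Values are given in full for the 12 members with the smallest p over 8 drug and genotype comparisons and for any member called. The members and all lists were chosen with earlier results of these data known. Promoter windows are from RefSeq, and exon lengths and overlaps from GENCODE M21. Some genes are not reported here.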

Additional observations from a re-analysis of the deposited data

Results flagged for a closer look

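In groups of 4 to 10 libraries, 11 of 175 sets of values had a highest or lowest library separated from the others by more than Dixon's criterion allows, and chance alone gives about 1 in 20. Of these, 4 were in mutant-labelled VPA replicate 4, which was highest for Mvd at 31.4 CPM (others 18.9 to 24.0), Cyp51 at 229.1 (161.8 to 191), Tm7sf2 at 28.3 (18.4 to 22.2) and Dhcr7 at 88.5 (57.5 to 69.1). These are all genes of sterol synthesis, which vary together over libraries.

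Mutant-labelled ACY957 replicate 1 was highest for Scd1 at 915 CPM (739 to 816) and Fads1 at 352 (299.98 to 323). Mutant-labelled ACY957 replicate 2 was highest for Scap at 85.5 CPM (69.0 to 75.5) and Acaca at 80.4 (55.1 to 66.9), and replicate 4 for Sc5d at 88.4 (53.5 to 63.7). Wildtype-labelled VPA replicate 5 was lowest for Scd1 at 376 CPM (535 to 659), and replicate 3, a library with low Th, was lowest for Insig2 at 100.7 (117 to 131).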

How the results depend on the processing

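The median log2 fold change of the members moved by less than the SD between libraries (0.108) in 124 of 126 recomputed values under 8 other settings and in all 416 that left out 1 library. As most medians are no larger than this SD, signs could still change. They did so in 41 of the 288 single-library values for genotype labels, interactions, vehicles and the drug difference, where the reported medians concerned were at most 0.05 in size, and in 0 of 128 for a drug against its vehicle. Under the other settings they changed in 11 of 78 and 1 of 48. The 2 larger moves came without the 16 vehicle libraries of mouse 48 and later: VPA in the mutant label changed sign to 0.021, and the difference in VPA effect between labels became 0.19. The count of members below vehicle in all 4 drug comparisons was then 7. The cause was not tested.

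Counts of called members were small and moved with the settings. For VPA over both labels the count was 3 with DESeq2, 2 without the Th-low libraries, and 0 with limma voom, with only the groups compared, without the 16 libraries or with the oligodendrocyte covariate. For ACY957 over both labels it was 1 (Tm7sf2) with DESeq2 and without the clock-discordant libraries. For the genotype labels over 4 treatments it was 0 with no filter, and 2 with DESeq2, without the 16 libraries, without the Th-low libraries or without the clock-discordant libraries. Within VPA it was 0 with only the groups compared and 1 without the Th-low or the clock-discordant libraries. Between the mutant-labelled vehicles it was 0 with only the groups compared, without the 16 libraries or with the covariate.

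Leaving out 1 library gave counts of 0 to 6 for VPA over both labels, 0 to 1 for VPA in the mutant label, 0 to 1 for the difference between the drugs, 1 to 3 between the mutant-labelled vehicles, 0 to 3 for the genotype labels within VPA and 0 to 2 over 4 treatments. Over all genes, calls ranged under the 8 settings from 0 to 39 for VPA over both labels (11 as reported), 0 to 28 for VPA in the mutant label (9), 2 to 55 for ACY957 over both labels (4), 73 to 262 for the genotype labels within VPA (157), 203 to 677 over 4 treatments (252, 7 settings) and 7 to 970 between the mutant-labelled vehicles (572). No paired analysis was possible because the labels give each mouse 1 library and no litter, batch or pairing between groups.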
